A study of Mus musculus with 24 samples.

Results

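The C-type lectin receptors are followed here through peripheral blood monocytes of mice treated with imiquimod (IMQ), a TLR7 agonist. The set holds 10 of the 53715 genes listed, chosen by gene name: Clec7a, Clec4n, Clec4d, Clec4e, Clec4a1, Clec4a3, Clec12a, Mrc1, Clec10a and Cd209a. They were chosen with earlier results of these data known. Each of the 10 was at 50 or more in 1 library or more and so among the 11230 genes tested. Ly6Chi monocytes are the classical, newly released monocytes of blood, and Ly6Clo cells are the patrolling type that can arise from them, a conversion in which Notch2 takes part. The study asked how loss of Notch2 in myeloid cells alters these cells when TLR signalling is engaged. RNA-seq libraries fall into 6 groups of 4: Ly6Chi cells of wt and N2ΔMy mice after Sham treatment, Ly6Chi cells of both genotypes after IMQ, and Ly6Clo cells of both genotypes after IMQ. N2ΔMy mice carry floxed Notch2 alleles deleted by Cre from the Lyz2 locus, which acts across myeloid cells, and the wt mice were littermate controls. All mice were on the C57BL/6 background, 8-10 weeks old, and both genotypes carried the Cx3cr1 GFP reporter allele in the sort. IMQ mice received 50 mg of Aldara cream with 5% IMQ on depilated skin per day for 4-5 days, and Sham mice received Vaseline, although the methods and a legend call these controls untreated or naive. Cells were sorted on day 5 as Lin-CD11b+GFP+CD115+MHC-II- cells, with Ly6Chi CD43- and Ly6Clo gates. Ly6Clo cells of Sham mice are not analysed here, so treatment was compared in Ly6Chi cells and subsets were compared under IMQ.

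C-type lectin receptors are surface proteins of phagocytes that bind sugars, lipids and cell debris. Some of them (Dectin-1, Dectin-2, Mincle and MCL) signal through the kinase Syk and the adaptor CARD9 and drive inflammatory gene expression, others carry or pair with inhibitory motifs, and a further group takes up glycoproteins for degradation or antigen presentation. Monocytes express many of them, and several are used to tell monocytes, macrophages and dendritic cells apart.

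The libraries held between 9524061 and 19763898 reads on genes, as inferred from the rounded values, and those of replicates 3 and 4 were mostly the smaller ones. By the names given to the libraries, replicates 1 and 2 of every group belong to one library series and replicates 3 and 4 to another. Notch2 itself was at 54.8% to 61.1% of wt in the 3 N2ΔMy groups, and the call was made in each (limma adjusted p = 0.0408 in Ly6Chi Sham, 0.0194 in Ly6Chi IMQ and 0.00306 in Ly6Clo IMQ), so transcript of the gene was still counted in N2ΔMy cells. The sorted subsets carried their labels: Ly6c2 was at 2370 to 9161 in the Ly6Chi libraries and at 12 to 382 in the Ly6Clo libraries. Summed T cell markers stayed at 29 or below and keratinocyte markers at 12 or below in every library, while B cell markers summed to 809 to 3872, neutrophil markers to 2033 to 12424 and platelet markers to 31 to 337. Hemoglobin and other erythroid genes summed to 753 to 1547 in replicate 4 of the 4 IMQ groups and to 92 or below in their other libraries.

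Of the 10 genes, 7 lie on chromosome 6 (GRCm38). Clec4a1 and Clec4a3 are 17.9 kb apart, Clec4n follows after 260.0 kb, and Clec4n, Clec4d and Clec4e then sit 15.1 kb and 6.5 kb from each other, with Clec4e on the opposite strand. Clec12a and Clec7a form a pair 96.3 kb apart. Mrc1 lies on chromosome 2, Cd209a on chromosome 8 and Clec10a on chromosome 11. Reads were 75 bases long, and none of the 75-base windows of 9 of the genes occurred in a transcript of another gene. For Clec10a, 148 of 3331 windows (4.44%) also occurred in its neighbour and close paralog Mgl2, so a small part of its reads could not be assigned to it alone.

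RefSeq promoter entries matched 8 of the 10 genes. The 250 bases before the transcription start are shown for 4 genes that carry the contrasts described below: Cd209a and Mrc1, which fell the most with IMQ, and the neighbours Clec4d and Clec4e, which differed in whether treatment or genotype separated their libraries. Each is written 5′ to 3′ on the strand of the gene (GRCm38.p6), and capitals mark matches to the motifs named after the sequences.
Cd209a, chr8:3748985-3749234, minus strand: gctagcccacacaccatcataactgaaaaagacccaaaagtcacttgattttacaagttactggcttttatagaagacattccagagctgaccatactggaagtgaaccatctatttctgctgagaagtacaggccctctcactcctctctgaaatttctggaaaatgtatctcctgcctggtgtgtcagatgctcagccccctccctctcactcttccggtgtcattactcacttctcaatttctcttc
Mrc1, chr2:14229164-14229413, plus strand: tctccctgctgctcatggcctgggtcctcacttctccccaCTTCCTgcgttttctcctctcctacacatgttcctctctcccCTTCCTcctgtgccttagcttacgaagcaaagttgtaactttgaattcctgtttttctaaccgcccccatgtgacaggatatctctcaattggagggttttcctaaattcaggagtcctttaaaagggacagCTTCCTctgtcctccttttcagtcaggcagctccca
Clec4d, chr6:123261857-123262106, plus strand: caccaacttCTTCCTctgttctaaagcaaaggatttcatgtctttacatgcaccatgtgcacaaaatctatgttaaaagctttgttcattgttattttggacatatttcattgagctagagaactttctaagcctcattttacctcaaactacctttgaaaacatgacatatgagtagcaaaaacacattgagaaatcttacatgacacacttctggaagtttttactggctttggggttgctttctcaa
Clec4e, chr6:123289872-123290121, minus strand: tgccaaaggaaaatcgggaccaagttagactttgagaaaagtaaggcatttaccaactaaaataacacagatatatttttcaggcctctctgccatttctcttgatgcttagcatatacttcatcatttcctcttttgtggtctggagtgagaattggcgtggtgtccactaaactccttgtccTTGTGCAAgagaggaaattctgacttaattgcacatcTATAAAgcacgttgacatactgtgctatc

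Searched on both strands were TGGGAA (the core bound by RBPJ, the DNA-binding partner of Notch), AGGAAG (PU.1), TTGCNNAA (C/EBP), TGANTCA (AP-1) and the IRF and NF-kB motifs, and TATAAA on the strand of the gene. Mrc1 held AGGAAG 3 times on the opposite strand, read as CTTCCT, and Clec4d held it 1 time. Clec4e held TTGCNNAA on the opposite strand and TATAAA 29 bases before its start, and Cd209a held none of these letters. TGGGAA was in 0 of the 10 entries of these genes, 2 pairs of which overlap, and in 21.6% of all 32851 promoter windows of this length. AGGAAG was in 6 of the 10 entries and in 29.5% of all windows, and TTGCNNAA in 2 of 10 and 9.56%. A match only describes the letters of the window.

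Values below are normalized counts, listed for replicates 1 to 4 in that order. A log2 fold change is a difference of log2(value + 1) and is given ± SE. A gene was called where limma's p, adjusted by Benjamini-Hochberg over all 11230 genes, did not exceed 0.05 and the log2 fold change was 0.6 or more in size. The labels number the replicates without naming animals, so p-values measure the spread between libraries. These are bulk libraries, in which more cells with a transcript and more transcript per cell cannot be told apart.

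Per kilobase of exon, the 10 genes spanned a wide range. In wt Ly6Chi Sham cells Clec4a3, Clec4a1 and Clec7a led at 1972 ± 818, 1951 ± 411 and 1933 ± 160 normalized counts per kb (SD, n = 4), and their ranges overlapped. Clec12a followed at 603 ± 276 and Cd209a at 271 ± 95.1, which overlapped each other. Clec10a (118 to 154 over the libraries), Mrc1 (95.4 ± 31.1) and Clec4e (90.9 ± 7.18) came next, each overlapping its neighbour, and Clec4d (54.9 ± 15.7) and Clec4n (45.8 ± 5.66) were lowest and overlapped. After IMQ, Clec4e stood 5th in Ly6Chi cells at 198 ± 63.3 per kb in wt and 292 ± 50.6 in N2ΔMy, and Mrc1 and Cd209a were the last of the 10. In wt Ly6Clo cells the order ran from Clec4a3 (4818 ± 1874) and Clec4a1 (3324 ± 450), far above Clec12a (366 ± 180), down to Clec10a (5.78 ± 4.49) and Mrc1 (1.29 ± 0.718). Summed over the 10 genes, the means of the 6 groups lay between 14563 and 17802 and the ranges of all groups overlapped.

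**Figure D1:**
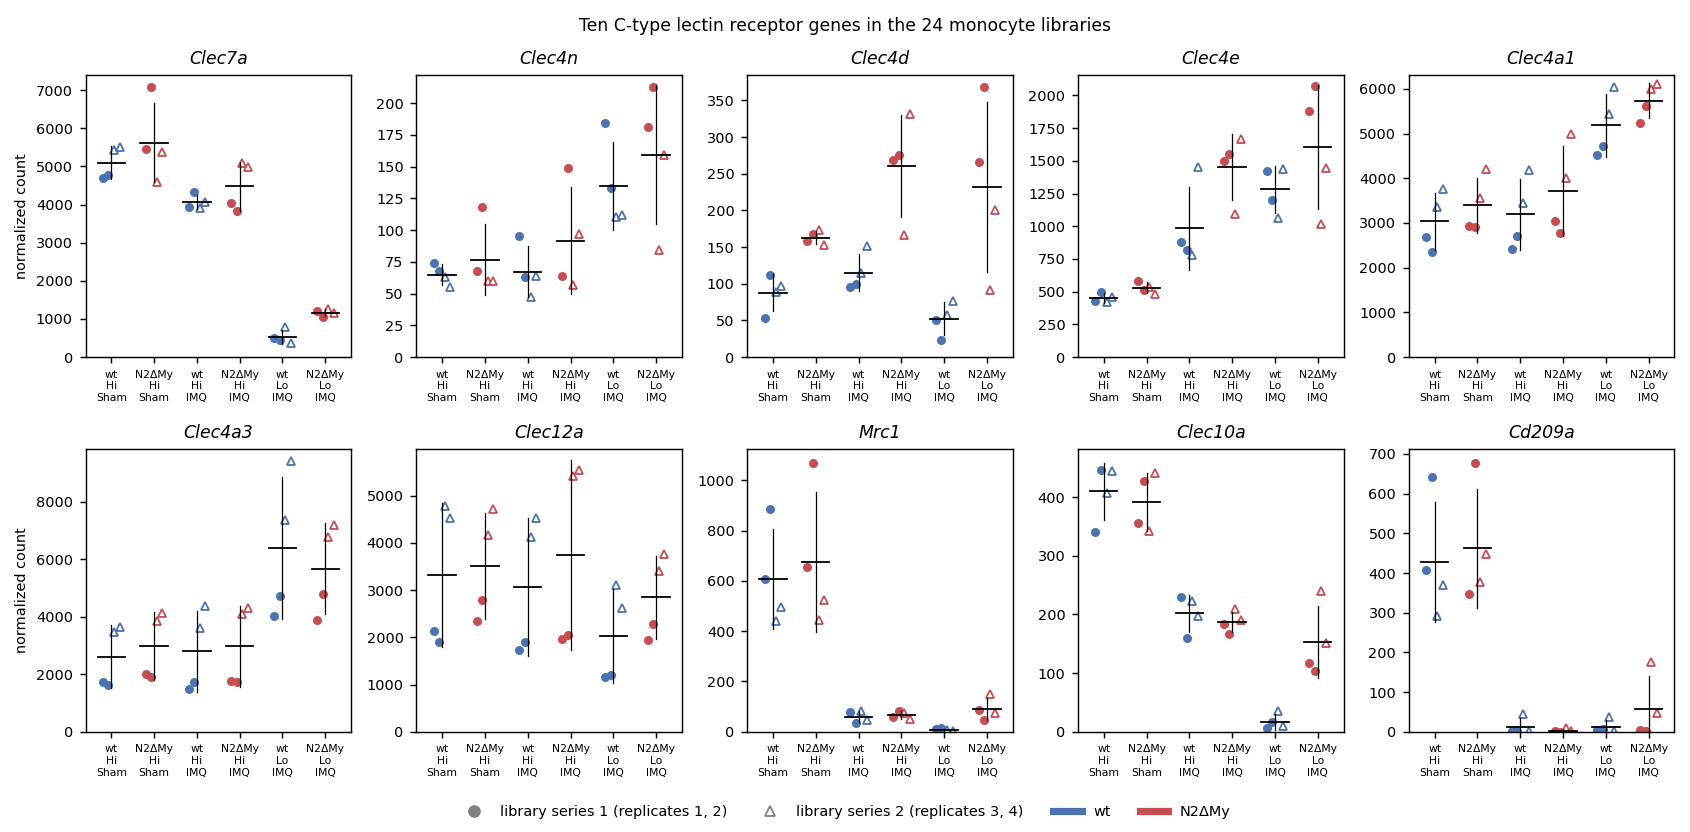
Normalized count (y axis, starting at 0) of each receptor gene in each of the 24 libraries, by group (x axis; Hi, Ly6Chi; Lo, Ly6Clo); circles are replicates 1 and 2, open triangles replicates 3 and 4, black lines the mean and SD of 4 libraries. Cd209a and Mrc1 are high in both Sham groups, Clec7a is low in both Ly6Clo groups, and Clec12a and Clec4a3 split into 2 levels by library series.

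After IMQ Cd209a, Mrc1 and Clec10a fell and Clec4e rose in Ly6Chi monocytes of both genotypes, which makes 4 of 10 genes called in wt, where 9.49% of all genes tested were called, and 4 of 10 in N2ΔMy, where 8.7% were called. The libraries of the 2 treatments did not overlap for 5 of the 10 in wt (21.5% of all genes) and for 4 in N2ΔMy (19.5%). The fifth was Clec7a.

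Cd209a encodes a mouse homologue of DC-SIGN, a mannose-binding receptor found on some monocyte-derived dendritic cells. In wt Ly6Chi cells it was at 408, 642, 292 and 371 after Sham and at 1, 3, 44 and 1 after IMQ. In N2ΔMy Ly6Chi cells the values were 346, 677, 378 and 448 after Sham and 2, 0, 9 and 1 after IMQ. Every Sham library thus lay above every IMQ library, and replicate 3 was the highest IMQ library in both genotypes. The log2 fold change was -6.31 ± 0.85 in wt (adjusted p = 0.000751) and -7.33 ± 0.61 in N2ΔMy (adjusted p = 9.6e-05), with the wt value between -7.35 and -5.85 when each library was left out.

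Mrc1 encodes the mannose receptor CD206, an endocytic receptor of macrophages. Its values were 607, 887, 442 and 496 in wt Sham and 77, 35, 82 and 48 in wt IMQ. In N2ΔMy cells they were 656, 1070, 444 and 524 after Sham and 60, 81, 76 and 49 after IMQ. The groups were far apart, and by the means Mrc1 was 10.0-fold lower after IMQ in wt and 10.1-fold lower in N2ΔMy. The log2 fold changes were -3.34 ± 0.30 (adjusted p = 9.76e-05) and -3.26 ± 0.27 (adjusted p = 9.67e-05).

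Clec10a encodes MGL1, a receptor for galactose-type sugars on macrophages and dendritic cells. It was at 341, 447, 407 and 444 in wt Sham cells and at 229, 160, 223 and 197 in wt IMQ cells, and at 356, 427, 343 and 441 against 183, 167, 209 and 191 in N2ΔMy. Sham and IMQ libraries did not overlap in either genotype, and the log2 fold changes of -1.02 ± 0.15 (adjusted p = 0.00136) and -1.06 ± 0.14 (adjusted p = 0.000822) were smaller than those of Mrc1 and Cd209a. The fall of all 3 was seen in both library series, with log2 fold changes of -7.50 and -5.12 for Cd209a, -3.79 and -2.88 for Mrc1 and -1.02 and -1.02 for Clec10a in wt.

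MHC class II and dendritic cell genes moved alongside these 3 receptors in the same libraries. The summed level of 11 such genes (H2-Aa, H2-Ab1, H2-Eb1, Cd74, Ciita, Flt3, Zbtb46, Xcr1, Itgae, Ccr7 and Dpp4) was 9530 to 19519 in wt Sham and 3296 to 5789 in wt IMQ Ly6Chi cells, and 12987 to 21570 against 3793 to 6251 in N2ΔMy, although the sort took MHC-II- cells. Of the list, 7 genes reached a value of 50 in each Ly6Chi group, and Xcr1, a marker of conventional dendritic cells, was at 1 or below in all 16 Ly6Chi libraries. The macrophage list of 11 genes was at 6192 to 7672 after Sham and 3259 to 4337 after IMQ in wt, and its members did not move together. Siglec1 (1740 to 2652 and 107 to 264) and Fcgr1 (2368 to 3134 and 961 to 1453) were lower after IMQ, and Adgre1 was higher (1843 to 1978 and 2141 to 2879). Timd4 and Vsig4 were at 0 in all of these wt libraries. In N2ΔMy the list was at 5742 to 8418 and 4492 to 6360, which overlapped, and Adgre1 was again higher after IMQ (2039 to 2382 and 3153 to 4054). The part of both lists in the fall of the receptors was not tested.

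Clec4e encodes Mincle, a receptor for mycobacterial glycolipid and for a protein released by dying cells, and it moved the other way. It rose from 425, 497, 421 and 462 to 883, 816, 784 and 1451 in wt, and from 582, 516, 537 and 485 to 1496, 1553, 1091 and 1668 in N2ΔMy. The lowest IMQ library lay above the highest Sham library of the same genotype. The log2 fold changes between the groups were 1.08 ± 0.18 in wt (adjusted p = 0.00246) and 1.44 ± 0.13 in N2ΔMy (adjusted p = 0.000166). In wt the highest value, 1451 in replicate 4, stood apart from the other 3 IMQ libraries. Some neutrophil genes were high in the same library. The summed list of 13 was 8185, 7327, 7758 and 12424 in wt IMQ, beside 6624 to 7161 in wt Sham, and S100a8 was 561, 545, 930 and 3257, beside 0 to 11. Csf3r, the most abundant of the list in Sham cells, was lower after IMQ (3787 to 4860, beside 5524 to 6278), and Ly6g was at 0 in every IMQ library. In N2ΔMy IMQ replicate 4 was the highest in both the list (12307) and Clec4e (1668), but replicate 3, next in the list (9889), had the lowest Clec4e (1091). The part of these genes in the rise was not tested. Leaving out any 1 library kept the call in both genotypes.

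The neighbours of Clec4e on chromosome 6 were not called with IMQ. Clec4d, which encodes MCL, the partner that pairs with Mincle, went from 53, 112, 89 and 97 to 96, 99, 115 and 151 in wt (log2 fold change 0.42 ± 0.26, adjusted p = 0.33). In N2ΔMy it went from 158, 168, 173 and 153 to 269, 275, 166 and 332 (0.63 ± 0.20, adjusted p = 0.0686). It was called there with the library series as a covariate (adjusted p = 0.0385) and without N2ΔMy IMQ replicate 3 (0.83, adjusted p = 0.00689), and not with the replicate block (adjusted p = 0.0519). Clec4n, encoding the mannan receptor Dectin-2, was at 55 to 74 in wt Sham and 47 to 95 in wt IMQ. Its log2 fold change was 0.01 ± 0.25 in wt and 0.21 ± 0.34 in N2ΔMy.

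Clec7a encodes Dectin-1, the receptor for fungal β-glucan. It was lower after IMQ in every wt library, at 3912 to 4323 against 4694 to 5509, with an adjusted p of 0.0212, but the log2 fold change of -0.32 ± 0.08 fell short of the size needed for a call. In N2ΔMy the ranges, 3827 to 5085 and 4591 to 7073, overlapped (-0.32 ± 0.14, adjusted p = 0.177). Clec4a1, Clec4a3 and Clec12a had log2 fold changes between -0.13 and 0.11 in the 2 genotypes. The 95% intervals of those of Clec4a1 reached from -0.35 to 0.52, and those of Clec4a3 and Clec12a from -0.98 to 0.88.

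Whether the response to IMQ differed between the genotypes was tested as an interaction, and 0 of the 10 receptors and 0% of all genes were called (limma; 177 genes had an unadjusted p under 0.05). The difference in log2 fold change was 0.07 (95% interval -0.85 to 0.99) for Mrc1, -0.03 (-0.45 to 0.38) for Clec10a, 0.36 (-0.14 to 0.86) for Clec4e and -1.02 (-3.46 to 1.42) for Cd209a.

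**Figure D2:**
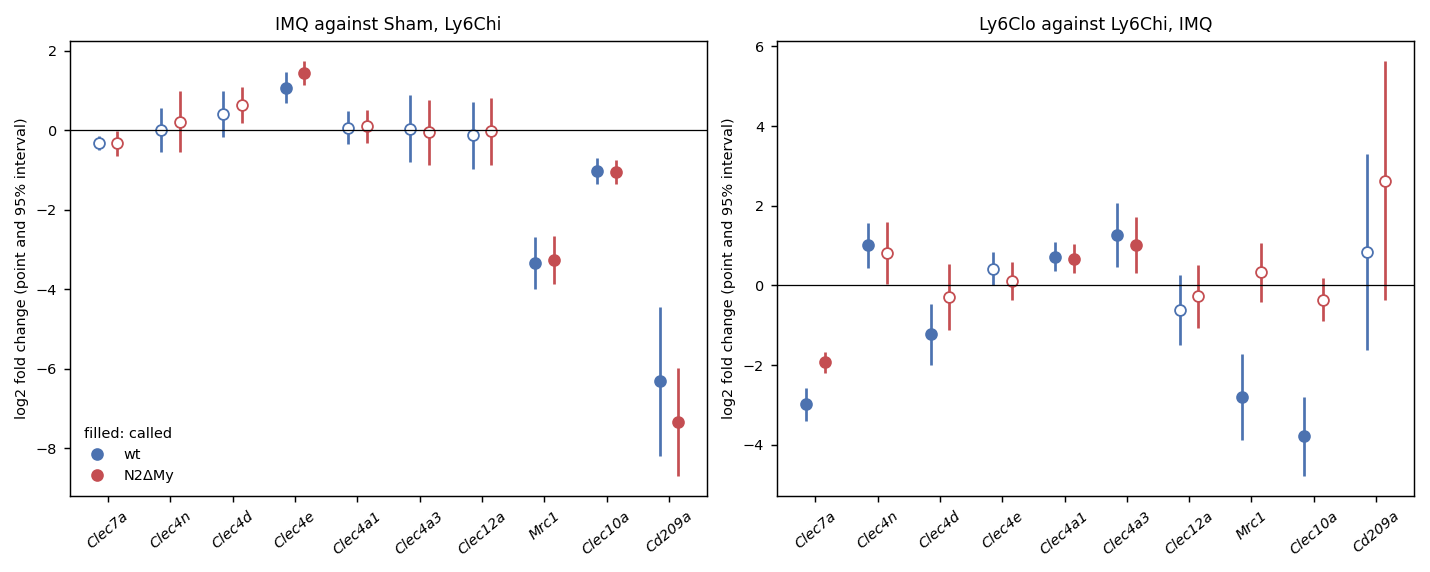
Log2 fold change (y axis) with its 95% interval for the 10 receptor genes (x axis), for IMQ against Sham in Ly6Chi cells (left) and Ly6Clo against Ly6Chi cells under IMQ (right); blue is wt, red N2ΔMy, and filled points were called. On the left Cd209a, Mrc1 and Clec10a lie below 0 and Clec4e above 0 in both genotypes, and on the right Mrc1 and Clec10a lie at -2.80 and -3.79 in wt and at 0.32 and -0.36 in N2ΔMy.

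Between the 2 monocyte subsets of wt mice under IMQ 7 of 10 receptors were called, against 24.6% of all genes: Clec7a, Clec10a, Mrc1 and Clec4d were lower in Ly6Clo cells, and Clec4a1, Clec4a3 and Clec4n were higher. In N2ΔMy mice 3 of 10 were called, against 17.4% of all genes, with Clec7a lower and Clec4a1 and Clec4a3 higher. The subsets did not overlap for 6 of the 10 in wt (35.4% of all genes) and for 2 in N2ΔMy (27.8%). The wt and N2ΔMy comparisons hold different libraries, but each shares its Ly6Chi IMQ libraries with the treatment comparison above.

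Clec7a showed the most separated values. It was at 3948, 4323, 3912 and 4074 in wt Ly6Chi cells and at 513, 440, 794 and 379 in wt Ly6Clo cells, a 7.65-fold lower mean. In N2ΔMy the values were 4037, 3827, 5085 and 4972 in Ly6Chi and 1198, 1047, 1249 and 1167 in Ly6Clo cells, a 3.84-fold lower mean. No Ly6Clo library came near a Ly6Chi library, and the log2 fold changes were -2.99 ± 0.19 (adjusted p = 1.36e-06) and -1.93 ± 0.12 (adjusted p = 1.1e-06).

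Clec10a went from 229, 160, 223 and 197 in wt Ly6Chi cells to 6, 17, 35 and 9 in wt Ly6Clo cells (log2 fold change -3.79 ± 0.45, adjusted p = 8.37e-05). Mrc1 went from 77, 35, 82 and 48 to 9, 14, 7 and 3 (-2.80 ± 0.49, adjusted p = 0.0011). All wt Ly6Clo libraries lay below all wt Ly6Chi libraries for both genes. In N2ΔMy mice the subsets overlapped: Clec10a was at 167 to 209 in Ly6Chi and 104 to 240 in Ly6Clo cells (-0.36 ± 0.24, adjusted p = 0.318), and Mrc1 at 49 to 81 and 47 to 150 (0.32 ± 0.34, adjusted p = 0.527).

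Clec4d was lower in wt Ly6Clo cells, at 51, 23, 58 and 77 against 96, 99, 115 and 151 in wt Ly6Chi cells (log2 fold change -1.22 ± 0.35, adjusted p = 0.0178). The groups did not overlap, but the call was lost without wt Ly6Chi replicate 4, the highest value (adjusted p = 0.0523). In N2ΔMy mice the 2 subsets had Clec4d at 166 to 332 and 92 to 368 and overlapped (-0.29 ± 0.37, adjusted p = 0.612).

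Clec4a1, Clec4a3 and Clec4n of the chromosome 6 cluster were higher in Ly6Clo cells. Clec4a1 and Clec4a3 encode the DCIR4 and DCIR3 members of the dendritic cell immunoreceptor family. Clec4a1 was at 2409, 2712, 3457 and 4185 in wt Ly6Chi and at 4520, 4710, 5440 and 6047 in wt Ly6Clo cells. All Ly6Clo libraries were the higher ones, with a log2 fold change of 0.72 ± 0.17 (adjusted p = 0.00622), and in N2ΔMy the change was 0.66 ± 0.17 (adjusted p = 0.0131). These changes stood close to the minimum size: they fell to 0.598 without wt Ly6Chi replicate 1 and to 0.584 and 0.539 without N2ΔMy Ly6Chi replicates 1 and 2, and quantile normalization gave 0.56 in wt and 0.58 in N2ΔMy.

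Clec4a3 was at 1471, 1725, 3603 and 4376 in wt Ly6Chi and at 4027, 4736, 7381 and 9430 in wt Ly6Clo cells. The 2 subsets overlapped across all libraries, but within each library series both Ly6Clo libraries lay above both Ly6Chi libraries. The log2 fold change was 1.26 ± 0.37 (adjusted p = 0.0199) in wt and 1.02 ± 0.32 (adjusted p = 0.0383) in N2ΔMy, and the fit blocked on replicate number gave an adjusted p of 3.05e-08 and 0.000114. Without the block the call was lost when any of 4 wt libraries was left out (Ly6Clo replicates 3 and 4, Ly6Chi replicates 1 and 2; adjusted p = 0.0501 to 0.0594) or any of 5 N2ΔMy libraries (Ly6Clo replicates 2, 3 and 4, Ly6Chi replicates 1 and 2; adjusted p = 0.0574 to 0.104). Limma without its trend lost it as well (adjusted p = 0.0501 and 0.0853).

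Clec4n was at 95, 63, 47 and 64 in wt Ly6Chi and at 184, 133, 110 and 112 in wt Ly6Clo cells, which did not overlap (log2 fold change 1.00 ± 0.26, adjusted p = 0.0113). In N2ΔMy it was at 64, 149, 57 and 97 and at 181, 213, 84 and 159 (0.81 ± 0.35, adjusted p = 0.118). Clec4e did not pass in either genotype, at 0.42 ± 0.19 in wt (adjusted p = 0.11) and 0.11 ± 0.21 in N2ΔMy (adjusted p = 0.754).

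The replicate number as a block raised the N2ΔMy count between subsets to 5 of 10, where 20.5% of all genes were called, by adding Clec4n (adjusted p = 0.0135) and Cd209a (adjusted p = 0.0379). The log2 fold change of Cd209a was 2.62 ± 1.36, with 0.87 in the first and 4.38 in the second library series, and without N2ΔMy Ly6Clo replicate 3, the library with the highest MHC class II sum, it was 1.502 in the fit without the block. The same block added Clec12a in wt (-0.61 ± 0.40, adjusted p = 0.262 without and 1.26e-05 with the block). That change is at the size limit, and leaving out 1 library moved it between -0.86 and -0.38, with -0.38 without wt Ly6Chi replicate 4. Clec12a encodes MICL, an inhibitory receptor for uric acid crystals, and it was at 1729, 1895, 4131 and 4537 in wt Ly6Chi and 1157, 1192, 3106 and 2631 in wt Ly6Clo cells. The subsets overlapped across the library series and did not overlap within either.

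The genotypes were compared in 3 settings, and their receptors differed in Ly6Clo cells. In Ly6Chi cells 0 of 10 were called after Sham (0.0178% of all genes, 585 genes at an unadjusted p under 0.05) and 0 of 10 after IMQ (0.0267%, 679 genes). In Ly6Clo cells 4 of 10 were called, all higher in N2ΔMy, against 4.78% of all genes in either direction: Clec7a, Clec4d, Clec10a and Mrc1. The same 4 were the ones whose genotypes did not overlap in Ly6Clo cells (12.8% of all genes). The median log2 fold change of the 10 was 0.74, beside 0.00 over all genes tested. It lay between Clec12a (0.58) and Cd209a (0.89), neither of them called, and single libraries moved it: it was 0.48 without N2ΔMy replicate 3, 0.41 without N2ΔMy replicate 4 and 1.12 without wt replicate 3. As the receptors were chosen with earlier results of these data known, the counts and the median only describe these 10 genes.

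**Figure D3:**
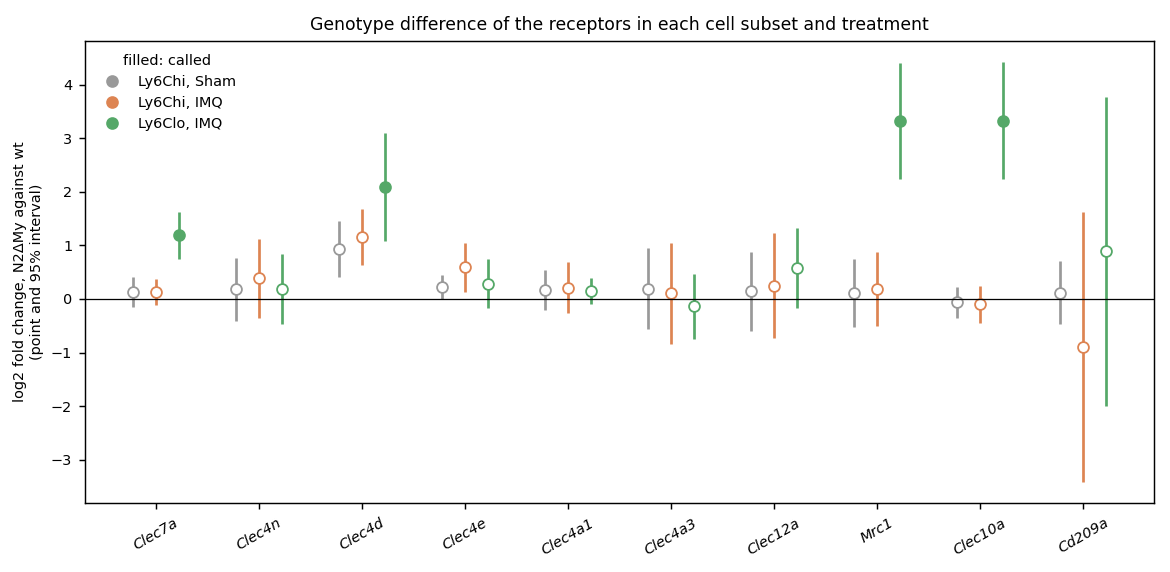
Log2 fold change of N2ΔMy against wt (y axis) with its 95% interval for the 10 receptor genes (x axis) in Ly6Chi Sham, Ly6Chi IMQ and Ly6Clo IMQ cells; filled points were called. Filled points occur in Ly6Clo cells alone, at Clec7a, Clec4d, Mrc1 and Clec10a, and the interval of Cd209a there reaches from -1.99 to 3.78.

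Mrc1 was at 9, 14, 7 and 3 in wt Ly6Clo cells and at 85, 47, 150 and 75 in N2ΔMy Ly6Clo cells, which by the means was 10.8-fold higher. The lowest N2ΔMy library was above the highest wt library, with a log2 fold change of 3.32 ± 0.49 (adjusted p = 0.00287). Clec10a was at 6, 17, 35 and 9 against 118, 104, 240 and 152, 9.16-fold higher by the means and again with no overlap (3.33 ± 0.50, adjusted p = 0.00298). In both genes replicate 3 was the highest N2ΔMy library. The calls were kept when any 1 library was left out, within each library series, and without replicate 3 of both Ly6Clo groups (3.01 for Mrc1, adjusted p = 0.0181, and 3.52 for Clec10a, adjusted p = 0.00294).

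Clec7a was at 513, 440, 794 and 379 in wt and at 1198, 1047, 1249 and 1167 in N2ΔMy Ly6Clo cells. The 2.19-fold higher mean was larger than the spread of either group, with no overlap (log2 fold change 1.19 ± 0.20, adjusted p = 0.00546). The call was kept without any 1 library, and the change was 1.24 in the first library series and 1.14 in the second, where 2 libraries a group gave an adjusted p of 0.111.

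Clec4d was at 51, 23, 58 and 77 in wt and at 266, 368, 92 and 200 in N2ΔMy Ly6Clo cells (log2 fold change 2.08 ± 0.45, adjusted p = 0.0224). The groups did not overlap, though N2ΔMy replicate 3 lay close to the highest wt library. The call was lost when wt or N2ΔMy replicate 1 or 2 was left out (adjusted p = 0.0505 to 0.0689), and the change was 3.15 in the first library series and 1.01 in the second (adjusted p = 0.332). Limma without its trend gave an adjusted p of 0.0578.

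The same gene was the one receptor whose genotypes also stayed apart in Ly6Chi cells. After Sham Clec4d was at 53, 112, 89 and 97 in wt and 158, 168, 173 and 153 in N2ΔMy, and after IMQ at 96, 99, 115 and 151 against 269, 275, 166 and 332. Non-overlap was shared by 3.15% of all genes after Sham and by 3.84% after IMQ, and the 2 values were not called (0.94 ± 0.23, adjusted p = 0.879, and 1.15 ± 0.23, adjusted p = 0.337). With the replicate block the IMQ value was called (adjusted p = 0.0123), as 1 of 10 receptors and 0.481% of all genes, and the Sham value was not (adjusted p = 0.215). In each of the 3 settings the exact permutation test on Clec4d alone gave p = 0.0286, two-sided, the smallest that 4 against 4 libraries allow. Any 2 groups of 4 that do not overlap give this value, so it restates the non-overlap and adds no support. Clec4d was the highest in N2ΔMy Ly6Chi IMQ cells (260.5 ± 69.1) and N2ΔMy Ly6Clo cells (231.5 ± 116), whose ranges overlapped, and the lowest N2ΔMy Ly6Chi Sham library was above the highest wt library of any group.

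Clec4e, 6.5 kb away, did not pass in any setting. Its log2 fold change between genotypes was 0.23 ± 0.10 in Ly6Chi Sham (adjusted p = 0.925), 0.59 ± 0.20 in Ly6Chi IMQ (adjusted p = 0.662) and 0.28 ± 0.21 in Ly6Clo cells (adjusted p = 0.52). With the block the Ly6Chi IMQ value had an adjusted p of 0.0274 but did not reach the size for a call. Across the 24 libraries Clec4d and Clec4e had a Pearson r of 0.32, and of 0.73 after the group means were taken out, as a description of libraries that share groups and library series.

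Cd209a was at 5, 7, 37 and 3 in wt and at 4, 1, 176 and 48 in N2ΔMy Ly6Clo cells. One library, N2ΔMy replicate 3, carried most of the N2ΔMy mean, and the genotypes overlapped (log2 fold change 0.89 ± 1.30, adjusted p = 0.787). The change was -1.13 in the first library series and 2.92 in the second, and without N2ΔMy replicate 3 it was -0.23. Clec4a1 (0.15 ± 0.11), Clec4a3 (-0.13 ± 0.28), Clec4n (0.19 ± 0.29) and Clec12a (0.58 ± 0.34) did not pass in Ly6Clo cells either, with adjusted p between 0.392 and 0.863. With the block Clec12a had an adjusted p of 0.00483 at this change, which is under the size for a call.

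Marker genes of other cell states moved with these receptors in the Ly6Clo libraries. A list of 8 Ly6Chi monocyte genes summed to 4682 to 9211 in wt Ly6Clo and to 39306 to 71931 in N2ΔMy Ly6Clo cells, beside 238797 to 291121 in N2ΔMy Ly6Chi IMQ cells. All 8 reached 50 in both Ly6Clo groups. Of the 8, 4 were higher in every N2ΔMy library than in any wt library: Fn1, encoding fibronectin, which made up most of the N2ΔMy sums (26927 to 57919, beside 2158 to 4325 in wt), Ccr2 (4393 to 6281 and 241 to 991), Vcan (743 to 1886 and 69 to 153) and F13a1 (1190 to 1962 and 71 to 450). Another 3 overlapped, Ly6c2 among them (46 to 382 and 12 to 92), and 1, Mgst1, was lower in N2ΔMy (401 to 514 and 621 to 773). A list of 10 Ly6Clo monocyte genes summed to 148090 to 177843 in wt and 92749 to 102938 in N2ΔMy, with Itgal its most abundant member (46334 to 60471 and 27247 to 36536), while its members Cd36 (424 to 1761 and 1969 to 3980) and Cx3cr1 (2378 to 3250 and 3682 to 3978) were higher in N2ΔMy. The 11 macrophage genes listed (Mertk, C1qa, C1qb, C1qc, Vcam1, Adgre1, Fcgr1, Timd4, Cd5l, Vsig4 and Siglec1) summed to 4835 to 6868 in wt and 9727 to 14531 in N2ΔMy, with 3 and 8 of them at 50 or more. Adgre1, encoding F4/80, was the most abundant of them at 3876 to 5977 and 5569 to 10202, C1qa was at 0 to 26 and 203 to 305, and Vcam1 was at 4 or below in both.

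The MHC class II and dendritic cell list summed to 3408, 3787, 7032 and 1701 in wt and to 6276, 7005, 42024 and 21705 in N2ΔMy Ly6Clo cells. N2ΔMy replicate 3 held H2-Aa at 6134, Flt3 at 850 and Zbtb46, a transcription factor of conventional dendritic cells, at 460, while Xcr1 was at 13. This is the library with the highest Cd209a, Mrc1 and Clec10a among the Ly6Clo libraries. In wt, replicate 3 was the highest of its group in this list, in Cd209a (37), in Clec10a (35) and in Clec7a (794) but not in Mrc1 (7). The part of the monocyte, macrophage and dendritic genes in these differences was not tested.

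**Figure D4:**
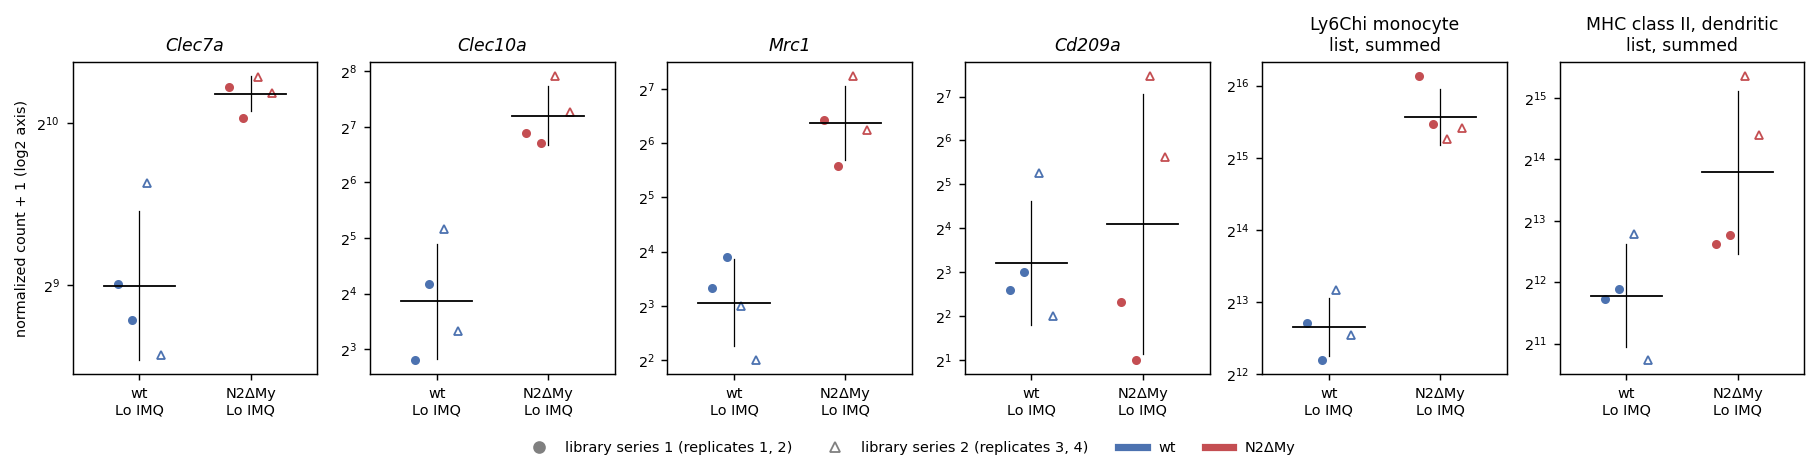
Normalized count + 1 on log2 axes for Clec7a, Clec10a, Mrc1 and Cd209a and for the summed Ly6Chi monocyte list and MHC class II, dendritic list in the 8 Ly6Clo libraries; circles are replicates 1 and 2, open triangles replicates 3 and 4, lines the mean and SD of the log2 values. Clec7a, Clec10a, Mrc1 and the Ly6Chi list do not overlap between genotypes, and in N2ΔMy the 2 triangles stand above the circles in Clec10a, in Cd209a and in the MHC class II, dendritic list.

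Whether the genotype difference itself depended on the subset was tested as an interaction under IMQ. It was called for 3 of 10 receptors, where 1.03% of all genes were called. Clec10a had an interaction of 3.43 ± 0.54 log2 (adjusted p = 0.00323), Mrc1 of 3.13 ± 0.59 (adjusted p = 0.0129) and Clec7a of 1.06 ± 0.24 (adjusted p = 0.0375), each being a larger N2ΔMy excess in Ly6Clo than in Ly6Chi cells. For Clec10a and Mrc1 the call was kept without any 1 of the 16 libraries. For Clec7a it was lost in 13 of the 16 cases, all but those without N2ΔMy Ly6Chi replicate 3 or 4 or wt Ly6Clo replicate 3, with adjusted p between 0.051 and 0.0902, and also with no filter on low values (0.0609). The interaction was 1.31 and 0.80 in the 2 library series for Clec7a, 3.45 and 3.41 for Clec10a and 1.97 and 4.28 for Mrc1. With 2 libraries a group the call was lost in the second series for Clec7a (adjusted p = 0.659) and Clec10a (adjusted p = 0.146) and in both for Mrc1 (adjusted p = 0.275 and 0.0708). For Clec4d the interaction was 0.93 ± 0.55 (95% interval -0.22 to 2.09, adjusted p = 0.808), so the data do not separate its genotype difference in the subsets.

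Some receptors differed between the library series within every group. Clec12a was at 1899 to 2784 in replicates 1 and 2 and at 4171 to 4775 in replicates 3 and 4 of the Sham groups, and the second series was higher in 6 of 6 groups, by 1.13 log2 on average. Of the variance of Clec12a within groups, 98.2% lay between the series, against a share of 59.5% over all genes tested. The share was 96.9% for Clec4a3 (1.05 log2 higher) and 86.7% for Clec4a1 (0.43 log2 higher), again in 6 of 6 groups. Clec4n was lower in the second series in all 6 groups, by 0.49 log2. Clec10a and Clec7a had the smallest shares, 28.0% and 31.3%. The labels do not say what the series are, and each series holds 2 libraries of every group.

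**Figure D5:**
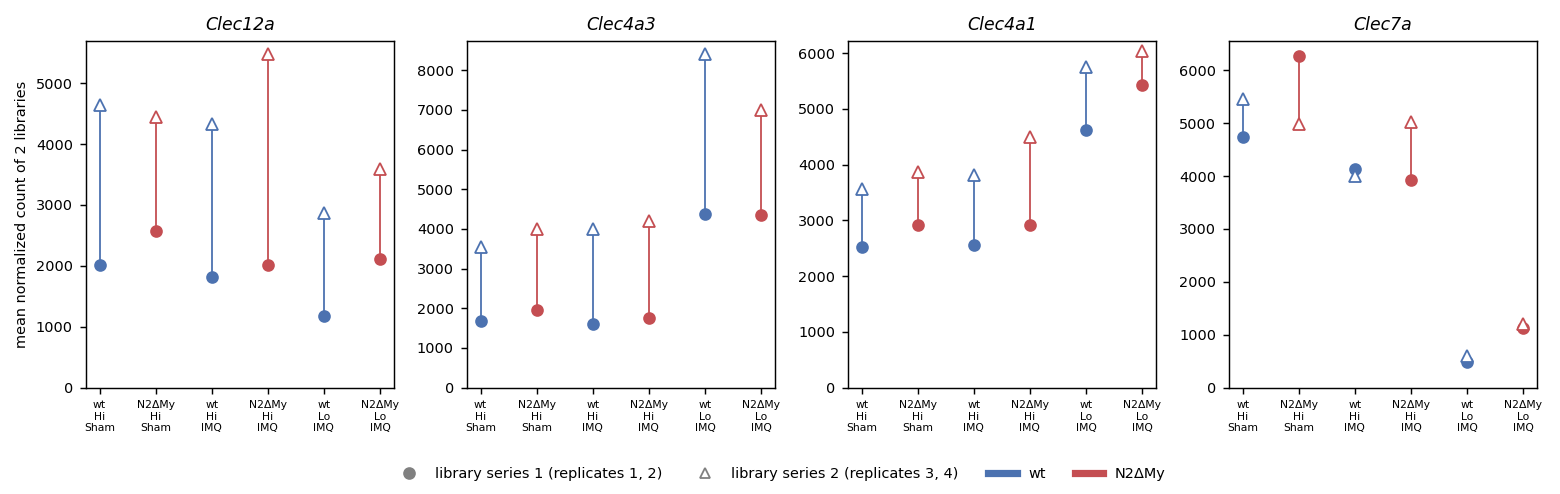
Mean normalized count (y axis, starting at 0) of the 2 libraries of each library series in each group (x axis) for Clec12a, Clec4a3, Clec4a1 and Clec7a; circles are series 1, open triangles series 2, and lines join the series of a group. The triangle lies above the circle in all 6 groups for the first 3 genes and in 4 of 6 for Clec7a.

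Over the 24 libraries the genes most like each receptor were sought by the Pearson r of log2(value + 1). Clec7a ran with F13a1 (r = 0.99), a classical monocyte marker, and with Sema4a (r = 0.98). Mrc1 ran with Abca9 (0.97) and the sialoadhesin gene Siglec1 (0.95), Clec10a with Acvrl1 and Eng (both 0.97), and Cd209a with Nfkbie (0.96) and Inpp4b (0.95). Clec4e ran with C5ar1 and Fpr2 (both 0.95), receptors for complement C5a and formyl peptides. The other 5 receptors had as nearest genes Cept1 (Clec4a1, 0.95), B4galt5 (Clec4a3, 0.98), Capn2 (Clec4d, 0.87), Pafah1b2 (Clec4n, 0.87) and Rab7 (Clec12a, 0.96). Among the receptors themselves Clec4a1 and Clec4a3 were most alike over the 24 libraries (r = 0.94), followed by Clec7a and Clec10a (0.89) and Clec10a and Mrc1 (0.88), and Cd209a and Clec4e ran against each other (-0.86). With group means taken out Clec4a3 and Clec12a were most alike (0.97), above Clec4a1 and Clec4a3 (0.95). The points share groups, library series and the scaling of the table.

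Of 82 other genes with a C-type lectin domain, 81 were in the table and 24 were tested. Of these 24, 13 were called with IMQ in wt (5 higher, 8 lower) and 9 in N2ΔMy (4 higher, 5 lower), 54.2% and 37.5% beside 9.49% and 8.7% of all genes. Klrk1, which encodes the receptor NKG2D, fell from a mean of 228 to 26.3 in wt (log2 fold change -3.59, adjusted p = 0.00272). Clec9a, a dendritic cell receptor for dead cells, fell from 92.8 to 22.3 in wt (-2.53, adjusted p = 0.0403) and from 66.3 to 5.50 in N2ΔMy (-3.54, adjusted p = 0.00615). Between subsets 12 were called in wt and 15 in N2ΔMy, beside 24.6% and 17.4% of all genes. Cd72, an inhibitory receptor, was higher in Ly6Clo cells by 7.64 and 6.60 log2. Between genotypes in Ly6Clo cells 5 were called (20.8%, beside 4.78% of all genes), 4 of them higher, among them Klrg2 (46.0 against 4.75), Clec5a (24.8 against 3.75) and Olr1, which encodes the scavenger receptor LOX-1 (171 against 44.0). Clec5a and Olr1 were also called in the interaction with the subset (2.40, adjusted p = 0.0338, and 2.38, adjusted p = 0.0236).

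Of 45 genes of the Syk and CARD9 signalling chain below the activating receptors, 42 were tested. With IMQ 2 were called in each genotype, both lower: Itpr1, a calcium channel of the endoplasmic reticulum (-0.80 in wt and -0.72 in N2ΔMy), and Vav2 (-0.65 and -0.71). Between genotypes in Ly6Clo cells 2 were called, both lower in N2ΔMy, among them the kinase gene Map3k14 (-0.61, adjusted p = 0.00428), and in Ly6Chi cells 0. Between subsets 14 were called in wt, 13 of them higher in Ly6Clo cells, and 9 in N2ΔMy, 8 of them higher, with Map3k14 at 1.38 and 1.16. For treatment in each genotype and for genotype in Ly6Clo cells 4.76% were called, beside 9.49%, 8.7% and 4.78% of all genes, and between subsets 33.3% and 21.4%, beside 24.6% and 17.4%.

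All 14 genes of inhibitory phosphatases and regulators were tested. In wt 8 were higher in Ly6Clo than in Ly6Chi cells and in N2ΔMy 6, with 0 lower (57.1% and 42.9%, beside 24.6% and 17.4% of all genes in either direction), led in wt by the ubiquitin ligase gene Cblb (1.73). Dok2, encoding an adaptor that restrains kinase signalling, stood out between genotypes in Ly6Clo cells at a mean of 1245 in N2ΔMy against 160.0 in wt (2.94, adjusted p = 3.45e-06), and its interaction with subset was called (2.01, adjusted p = 0.000828), while Cblb was lower in N2ΔMy (-0.71, adjusted p = 0.00391). Of 19 cytokine and chemokine genes induced by these receptors 6 were tested. Cxcl10 fell with IMQ in both genotypes (-3.61 and -3.62), as the 1 gene called of 6 (16.7%, beside 9.49% and 8.7% of all genes). Between subsets 4 were called in wt and 2 in N2ΔMy (66.7% and 33.3%, beside 24.6% and 17.4%). Il1b was higher in Ly6Clo cells of both (3.77 and 3.02), and 0 were called between genotypes in Ly6Clo cells, where 4.78% of all genes were. Of 6 genes of the phagocyte oxidase, Ncf1 alone was called between genotypes in Ly6Clo cells (0.79, adjusted p = 0.00187), which is 16.7% beside 4.78% of all genes.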

How the data were processed

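RNA from sorted peripheral blood monocytes was made into stranded total RNA libraries and sequenced as 75-base single reads. The authors trimmed (Trim Galore 0.4.4), aligned to GRCm38.p6 (STAR 2.5.3a), counted reads on GENCODE genes and normalized with DESeq2. The deposited table holds, per the file headers and its values, normalized counts rounded to whole numbers, treated here as a score and not as raw counts, so count models were not used and the planned branch for raw counts did not apply.

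Values were compared as log2(value + 1), which understates changes of low genes. The test took the 11230 of 53715 genes that reached 50 in any of the 24 libraries, with limma 3.58.1 (lmFit, eBayes with a trend, R 4.3.3) on the 8 libraries of the 2 groups, or 16 for an interaction, with Benjamini-Hochberg adjustment over all genes tested and 95% intervals from the same moderated t distribution. Single genes had two-sided exact permutation tests over 70 assignments. Deviations from the group means correlated between same-numbered libraries (r = 0.16 to 0.62 over all pairs), so the number was used as a block in a second fit. Within a library series the mean r was lower, at 0.11 to 0.24 for genotypes and subsets and at 0.01 and -0.01 for IMQ against Sham. Much of the correlation thus goes with the series, and the labels do not pair the libraries, so the block is an alternative and not a known pairing. The receptors and gene lists were chosen with earlier results of these data known. Genes of the wider lists were named by the largest absolute log2 fold change, at most 3 called per list and comparison, and for each receptor the 3 genes of highest r were sought. Some genes that these rules select are not reported here.

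Depth was read from the gaps between the whole numbers that low genes take in a library, tested on 8 simulated libraries of known scale. Its precision could not be carried to intervals per gene, so SD over 4 libraries is given. The fits were tested on simulated data. Of 100 genes changed by 1 log2, the genotype fit in Ly6Clo cells recovered 96 and the genotype by subset interaction 53, and at 2 log2 each recovered 100. An interaction of about 1 log2 can thus be missed. At most 1.57% of genes had equal values in a pair of libraries, so no library was counted as a duplicate. Coordinates come from GENCODE M21 and promoters from RefSeq, both on GRCm38. Figures used Python 3.11.15 and matplotlib 3.10.9. Alternatives were another pseudocount, filters, scalings and thresholds, limma without the trend, the block, the library series as a covariate or analysed separately, all 24 libraries in 1 fit and each library left out. Leaving out replicate 3 of both Ly6Clo groups was chosen after seeing the data.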

Additional observations from a re-analysis of the deposited data

Results flagged for a closer look

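Among the 60 sets of 4 libraries (10 receptors in 6 groups), 4 held a library whose gap to the nearest other one took up more of the range than Dixon's 95% limit allows, where chance flags about 1 in 20. Cd209a was at 44 in wt Ly6Chi IMQ replicate 3, against 3 or below in the other 3, and at 37 in wt Ly6Clo IMQ replicate 3, against 7 or below. Clec4e was at 1451 in wt Ly6Chi IMQ replicate 4, against 883 or below. Clec4n was at 118 in N2ΔMy Ly6Chi Sham replicate 2, against 68 or below. The genotype difference was larger in Ly6Clo than in Ly6Chi cells under IMQ by the limma interaction for Clec7a (1.06 log2, adjusted p = 0.0375), Clec10a (3.43 log2, adjusted p = 0.00323) and Mrc1 (3.13 log2, adjusted p = 0.0129).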

How the results depend on the processing

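Of 90 receptor differences, 25 were called and 4 more were called with the replicate block, which lost none and changed no other call. These 29 were recomputed 624 times, 0 changed sign, 560 kept their side of the threshold, 50 lost the call and 14 gained it, and 14 of the 29 kept their call or lack of it throughout. Of the other 61 differences, 40 changed sign under at least 1 alternative and 5 were called under at least 1. Of 200 recomputed counts of called receptors 192 stayed within 1.5 times. With the replicate block, and with the library series as a covariate, the genotype count in Ly6Chi IMQ cells was 1 in place of 0 and the subset count in N2ΔMy was 5 in place of 3. Within the second library series, with 2 libraries a group, the genotype count in Ly6Clo cells was 2, the subset count in wt 4 and the genotype by subset count 0. With 1 library left out the counts ranged from 1 to 3 for the subsets in N2ΔMy (1 without Ly6Chi replicate 1), from 5 to 7 for the subsets in wt, from 3 to 4 for the genotypes in Ly6Clo cells and from 2 to 3 for the interaction. The 40 differences that changed sign include Cd209a between genotypes in Ly6Clo cells. Mean values were under 20 for Cd209a in 3 groups and for Mrc1 and Clec10a in wt Ly6Clo cells, where single reads weigh on a log2 change and depth limits the comparison.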
